A study of Mus musculus with 34 samples.

Results

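The step from neural progenitor to immature neuron was followed in mouse cells that carry a duplication of the 7qF3 region on one chromosome and a deletion of it on the other. The members were all 5 RNA libraries with that genotype at these stages, of 28 RNA libraries in the series: progenitor libraries 2, 4 and 5, harvested at day 5 of differentiation, and neuron libraries 2 and 4, harvested at day 16. The 7qF3 region is the mouse counterpart of human 16p11.2, a locus whose copy number changes are linked to autism. The genotype label of these cells is 129Sv df/dp, with deficiency on one homologue and duplication on the other, and their background strain is C57BL/6N. For comparison, the same step was taken from control cells (129Sv +/+; 5 progenitor and 4 neuron libraries) and from cells heterozygous for the deletion (3 progenitor and 2 neuron libraries), all with the same background strain label. All were embryonic stem cell lines given to the study by one laboratory, and no label says how many clones each genotype rests on. Every line was taken through epiblast stem cells, grown in Activin and FGF2, and then towards ventral midbrain neurons. A description label of the 3 duplication-deletion progenitor libraries names only the deletion, while their titles and genotype labels give both changes, and these were used. No label says that replicates were separate cultures, so the p-values below measure the spread between libraries, which may be technical.

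Neural progenitors of the ventral midbrain divide, hold the intermediate filament nestin and are patterned by Shh, Wnt1 and Fgf8. When they leave the cell cycle, the replication and mitosis programmes are switched off, the axonal cytoskeleton, ion channels and synaptic release machinery are built up, and dopaminergic neurons acquire the enzymes and transporters that make and recycle dopamine. Astrocytes and ependymal cells arise later from the same kind of progenitor, so a culture at the neuron stage can hold them too.

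The count table held 19311982 to 72042936 expected counts in the 5 libraries, and the largest entry took 20.9% to 32.6% of them. Levels are given as CPM, counts scaled to a common library size by the trimmed mean of M-values (TMM), always in the order of progenitor libraries 2, 4 and 5, then neuron libraries 2 and 4. Fold changes are log2 values of neurons over progenitors from edgeR's quasi-likelihood test, followed by a standard error (SE). The SE was derived from the test, as the size of the log2 fold change over the square root of the F statistic. It therefore holds no information beyond the fold change and its p. A gene is called where the Benjamini-Hochberg adjusted p over all 18797 genes tested was under 0.05. The first principal component of all 19 progenitor and neuron libraries held 50.1% of the variance and placed the 2 neuron libraries at 132.0 and 130.6. Progenitor library 4 lay at -58.4, nearer to the neurons than progenitor libraries 2 and 5 at -113.6 and -89.0. In bulk RNA, fewer cells of a type and less RNA per cell cannot be told apart, and this holds for every difference below.

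In all, 4435 of 18797 genes were called, 23.6% of those tested, with 2247 higher in neurons (12.0%) and 2188 lower (11.6%). Among them, 4411 had both neuron libraries outside the range of the 3 progenitor libraries (23.5% of all genes tested). These shares are the background against which the counts for each gene group are set, together with the median log2 fold change of all genes tested, -0.03. Without neuron library 2 the number called was 2236, and without neuron library 4 it was 2210, so each group is given with what leaving out each of the 5 libraries in turn did to its calls.

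**Figure D1:**
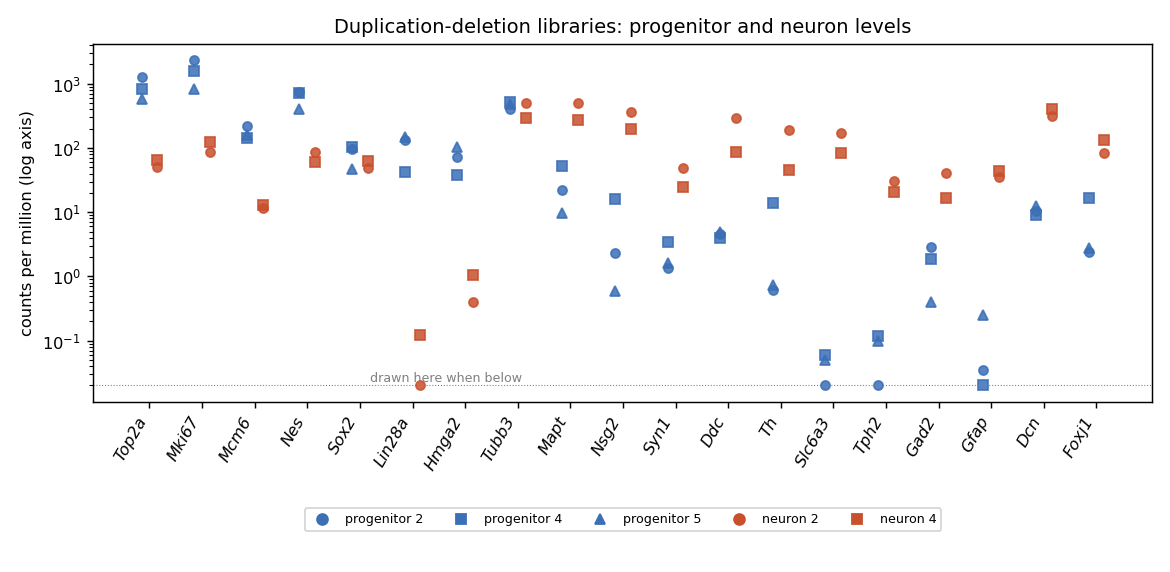
CPM on a log axis for 19 genes in the 3 progenitor libraries and the 2 neuron libraries of duplication-deletion cells, 1 point per library; values under the dotted line are drawn on it. Cell cycle, nestin and oncofetal genes sit lower in both neuron libraries, neuronal and glial genes sit higher, and Sox2 and Tubb3 overlap.

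Replication genes fell as a group. The replicative helicase list holds the Mcm subunits that unwind DNA and the factors that load and fire them, and 16 of 16 members were called lower, where 11.6% of all genes were; the median log2 fold change was -3.95. Their summed level was 1594, 1222 and 1078 CPM in the progenitors and 134 and 136 in the neurons. Mcm6, a core helicase subunit, had 222, 143 and 162 CPM in the progenitors and 11.6 and 12.9 in the neurons, a log2 fold change of -3.84 (SE 0.35, adjusted p = 1.76e-06). Mcm2 gave -4.07 and Mcm3 -4.05 on the same scale. In every one of these the neuron libraries were far below the lowest progenitor library. The smallest fall was that of Gins4, -1.06 (SE 0.23), and 13 of the 16 stayed called in every leave-one-out fit. Cdt1, which licenses origins, was not called without neuron library 2 (adjusted p = 0.0527) or neuron library 4 (0.0709), Gins3 was not without neuron library 4 (0.063), and Orc1 was not without progenitor library 5 (0.0573) or neuron library 2 (0.143). The Orc1 entry shares its coordinates with Orc1l, and their sum, taken after the data were seen, fell from 13.6, 7.47 and 10.8 CPM to 0.677 and 1.19 (-3.50, SE 0.45, adjusted p = 2.79e-05).

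Mitosis genes fell too, all 28 of 28 members being called in that direction, at a median of -3.88 on the log2 scale. Summed, they held 7713, 5305 and 3790 CPM in the progenitors and 321 and 437 in the neurons. Top2a, the topoisomerase that untangles chromosomes, was at 1292, 836 and 574 CPM in the progenitors and 49.8 and 64.0 in the neurons (log2 fold change -3.98, SE 0.35, adjusted p = 1.49e-06). Mki67, which coats mitotic chromosomes, was at 2328, 1578 and 845 CPM against 85.5 and 125 (-3.91, SE 0.51, adjusted p = 3.56e-05). Both kept a measurable level in both neuron libraries, and progenitor library 5 was the lowest of the 3 progenitor libraries for each. The checkpoint kinase gene Ttk showed the smallest p of the list, with 99.4, 50.4 and 46.4 CPM against 2.77 and 2.84 (-4.54, SE 0.35, adjusted p = 1.26e-06). Of the 28, 27 stayed called in every leave-one-out fit. The exception was Cenpa, the centromeric histone, without neuron library 4 (adjusted p = 0.0525); its entry shares its coordinates with a second entry, and the sum of both gave -4.45.

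The promoters of these groups are shown because replication and mitosis genes moved together and are known to be read through different promoter elements: E2F factors act on replication genes, and the DREAM and MuvB complexes act on mitosis genes through the CHR element. A pair of letter sets was searched on both strands in RefSeq promoter windows (GRCm38.p6, 250 bases before to 50 after the start of transcription): TTTCCCGC or TTTGGCGC for E2F, and TTTGAA or TTCGAA for CHR, of which TTCGAA reads the same on both strands. The 200 bases before the start are printed 5′ to 3′ on the gene's own strand with each match in capitals, in either orientation. They are Mcm6 (chr1:128359706-128359905, minus strand), Cdc6 (chr11:98907951-98908150, plus strand), Top2a (chr11:99024190-99024389, minus strand) and Ube2c (chr2:164769729-164769928, plus strand).
Mcm6, E2F letters: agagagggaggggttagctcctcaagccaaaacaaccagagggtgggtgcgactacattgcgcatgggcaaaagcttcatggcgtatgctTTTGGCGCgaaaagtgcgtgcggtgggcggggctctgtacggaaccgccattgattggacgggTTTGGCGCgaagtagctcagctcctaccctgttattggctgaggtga
Cdc6, E2F letters: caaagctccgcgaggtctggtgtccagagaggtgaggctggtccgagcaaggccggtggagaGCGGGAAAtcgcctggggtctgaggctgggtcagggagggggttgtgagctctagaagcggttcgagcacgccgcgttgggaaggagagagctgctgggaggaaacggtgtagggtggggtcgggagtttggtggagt
Top2a, CHR letters: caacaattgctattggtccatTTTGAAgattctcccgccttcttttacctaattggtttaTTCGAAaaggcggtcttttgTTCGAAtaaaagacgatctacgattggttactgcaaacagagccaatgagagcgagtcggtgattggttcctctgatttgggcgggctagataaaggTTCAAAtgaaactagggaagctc
Ube2c, CHR letters: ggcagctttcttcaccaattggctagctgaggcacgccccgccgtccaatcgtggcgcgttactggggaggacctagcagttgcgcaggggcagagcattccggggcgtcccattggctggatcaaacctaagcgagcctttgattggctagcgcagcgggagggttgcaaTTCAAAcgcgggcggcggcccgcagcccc

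Of the 12 helicase list members with a promoter window, 7 held an E2F match (58.3%), and so did 0 of 24 mitosis list members, against 486 of all 27025 promoters (1.80%) and 344 of the 11126 tested genes with a window (3.09%). A CHR match was found in 19 of the 24 mitosis promoters (79.2%) and 4 of the 12 helicase promoters (33.3%), against 21.7% of all promoters and 16.2% of those of tested genes. The E2F matches of Mcm6 began 47 and 110 bases before the start, that of Cdc6 138 bases before it. In Top2a, 4 CHR matches lay 23, 120, 140 and 179 bases before the start, and in Ube2c a single one lay 29 bases before it. Cdc6, which loads the helicase, was at 54.8, 39.6 and 39.4 CPM in the progenitors and 1.57 and 2.14 in the neurons (log2 fold change -4.58, SE 0.40), and Ube2c, the ubiquitin-conjugating enzyme of mitotic exit, was at 68.6, 96.4 and 86.1 CPM against 3.49 and 4.02 (-4.48, SE 0.39). The Cdc6 entry shares its coordinates with a second entry of the same name in lower case, and their sum gave -4.69. A match describes letters in the window only.

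Of 14 cell cycle inhibitors, 2 were called, both lower: the pocket protein gene Rbl1 (-2.45, SE 0.36) and the growth arrest gene Gadd45g (-1.91, SE 0.46), with a median of -0.59. Gadd45g was not called without neuron library 2 (adjusted p = 0.064) or neuron library 4 (0.063).

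The oncofetal list gathers RNA-binding and chromatin proteins that mark early, fast-growing tissue and are repressed in maturing cells in part by the let-7 microRNAs. Of 9 members, 8 were called lower, and all 8 stayed called in every leave-one-out fit; the median log2 fold change was -4.12. Lin28a, which blocks let-7 maturation, was at 133, 42.0 and 149 CPM in the progenitors, at 0 in neuron library 2 and at 0.122 in neuron library 4 (log2 fold change -10.67, SE 1.21, adjusted p = 1.10e-05). Its paralog Lin28b was at 493, 134 and 234 CPM in the progenitors against 9.24 and 4.84 (-5.35, SE 0.67). Progenitor library 4 was the lowest of the progenitors for both, and no neuron library came near it. The chromatin architectural gene Hmga2 was at 71.6, 38.5 and 105 CPM against 0.398 and 1.05 (-6.62, SE 0.99), and the mRNA-binding gene Igf2bp1 at 137, 182 and 159 CPM against 10.0 and 8.35 (-4.12, SE 0.37). Trim71, itself a let-7 target, had a log2 fold change of -6.89 (SE 0.98), Igf2bp3 of -3.36 (SE 0.37) and Arid3b of -3.08 (SE 0.32). Hmga1 was not called (-2.36, adjusted p = 0.067).

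The host transcript of the miR-17-92 cluster, Mir17hg, was looked at after its values were seen, because its microRNAs promote proliferation and the Lin28 genes act on microRNAs. Its entry was at 102, 35.8 and 43.9 CPM in the progenitors and 3.62 and 3.50 in the neurons (log2 fold change -4.09, SE 0.55, adjusted p = 5.25e-05), and at -3.83 and -4.50 on the same scale in control and deletion cells. The mature microRNAs were not measured here. Their RefSeq sequences (GRCm38.p6, plus strand of chromosome 14, from chr14:115043684-115043706 for miR-17-5p to chr14:115044476-115044496 for miR-92a-3p) are printed because the seed sets which sites a microRNA can pair with, with the seed, bases 2 to 8, in capitals.
mmu-miR-17-5p: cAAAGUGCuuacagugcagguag
mmu-miR-20a-5p: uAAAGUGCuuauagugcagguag
mmu-miR-18a-5p: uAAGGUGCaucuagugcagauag
mmu-miR-19a-3p: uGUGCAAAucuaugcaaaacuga
mmu-miR-19b-3p: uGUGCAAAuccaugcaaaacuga
mmu-miR-92a-3p: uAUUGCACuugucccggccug
miR-17-5p and miR-20a-5p share 1 seed, miR-19a-3p and miR-19b-3p share another, and miR-18a-5p and miR-92a-3p each have their own.

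Progenitor identity genes did not move as a group. Of 20 members 2 were called higher and 2 lower, near the background shares, with a median of -0.52. Nes, which encodes nestin, was at 751, 722 and 411 CPM in the progenitors and 87.9 and 61.6 in the neurons (log2 fold change -3.07, SE 0.43, adjusted p = 7.98e-05). The pluripotency and stem cell factor Sox2 was at 96.0, 102 and 47.3 CPM against 49.5 and 63.5 (-0.54, adjusted p = 0.303), so that both neuron libraries lay above progenitor library 5 and below the other progenitors. Sox9, a factor of gliogenic progenitors, rose from 16.1, 28.2 and 13.0 CPM to 71.1 and 97.2 (2.14, SE 0.44, adjusted p = 0.00203). Prom1, a membrane protein of ciliated and stem cells, rose from 129, 155 and 96.0 CPM to 380 and 720 (2.12, SE 0.53), and was not called without neuron library 4 (adjusted p = 0.109). The proneural factor Neurog2 fell by 2.13 on the log2 scale (SE 0.60), but was not called without progenitor library 4 (0.0601), neuron library 2 (0.0649) or neuron library 4 (0.16).

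In the Notch pathway, which keeps progenitors from differentiating, 1 of 22 members was called higher and 2 lower. The ligand gene Dll1 was at 27.2, 54.7 and 23.2 CPM in the progenitors and 9.28 and 5.68 in the neurons (log2 fold change -2.23, SE 0.61, adjusted p = 0.0126), and the ligand gene Jag1 at 39.0, 41.0 and 39.2 against 12.0 and 20.8 (-1.27, SE 0.28). The coactivator gene Maml2 gave 1.26 (SE 0.45). None of the 3 held in every leave-one-out fit: Dll1 was lost without neuron library 2 (adjusted p = 0.0541) or 4 (0.139), Jag1 without neuron library 2 (0.104), and Maml2 without progenitor library 2 (0.151), progenitor library 5 (0.109), neuron library 2 (0.107) or neuron library 4 (0.216). The receptor genes Notch1 (0.32), Notch2 (-0.23) and Notch3 (-1.33) and the target genes Hes1 (-0.51) and Hes5 (-2.17) were not called.

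Genes that all neurons use were called higher for 14 of 28 members (12.0% of all genes were) and lower for 1, the other 13 were not called, and the list's median was 1.55. Their summed level was 2756, 3499 and 1816 CPM in the progenitors and 8261 and 4612 in the neurons, with neuron library 2 the higher. Mapt, which encodes the axonal microtubule protein tau, was at 21.8, 51.9 and 9.57 CPM in the progenitors and 505 and 272 in the neurons (3.80, SE 0.67, adjusted p = 0.000593). The endosomal gene Nsg2 went from 2.34, 15.8 and 0.595 CPM to 362 and 199 (5.47, SE 0.87), and the secretory granule genes Chga (2.48, SE 0.36) and Scg2 (3.58, SE 0.73) rose too. In these genes the progenitor with the highest level was library 4, and the neuron libraries were well above it.

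Other members were not called or were called lower. Tubb3, the neuronal beta-tubulin often used to stain new neurons, was at 409, 516 and 487 CPM in the progenitors and 499 and 294 in the neurons (log2 fold change -0.25, adjusted p = 0.711), so the groups overlapped. Rbfox3, which encodes the NeuN antigen, was at 6.86, 8.63 and 1.64 CPM against 21.5 and 13.0; the neuron libraries were the highest, but the difference was not called (1.59, adjusted p = 0.125). Dcx, which marks migrating young neurons, was at 219, 289 and 117 CPM against 453 and 215 (0.68, adjusted p = 0.421). The neurofilament gene Nefm was called lower (-2.29, SE 0.65) and lost the call without progenitor library 5 (adjusted p = 0.0715), neuron library 2 (0.0751) or neuron library 4 (0.155). Of the 14 members called higher, 5 stayed called in every leave-one-out fit, and the count was 8 without progenitor library 2, 9 without progenitor library 5 and 5 without neuron library 2.

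Synaptic genes rose together. Of 28 genes for synaptic vesicles and release, 20 were called higher (12.0% of all genes were) and the other 8 were not called, with a median of 2.40. Syn1, which tethers vesicles, was at 1.35, 3.40 and 1.64 CPM in the progenitors and 48.1 and 24.5 in the neurons (4.08, SE 0.77, adjusted p = 0.00103), and its paralog Syn2 was at 1.07, 1.77 and 0.496 against 28.2 and 18.6 (4.35, SE 0.48). The vesicle GTPase genes Rab3a (3.16, SE 0.41) and Rab3b (3.58, SE 0.45) and the vesicle glycoprotein gene Sv2a (2.97, SE 0.44) showed the same direction. Neuron library 2 was above neuron library 4 in each of these genes, and both were above all progenitors. Without neuron library 2 the count was 13, and 13 of the 20 held in every leave-one-out fit; Snap25, a membrane fusion protein gene (2.24), was lost there (adjusted p = 0.263) and without progenitor library 5 (0.0905).

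On the receiving side, 17 of 26 postsynaptic and adhesion genes were called higher and 1 lower (median 2.65), and 13 of the 17 held in every leave-one-out fit. The kinase subunit gene Camk2b was at 5.49, 5.33 and 3.22 CPM in the progenitors and 74.2 and 47.9 in the neurons (3.70, SE 0.37, adjusted p = 2.84e-06). The synaptic organisers Lrrtm2 (4.47, SE 0.53) and Nrxn3 (4.64, SE 0.67) rose, and so did the axonal adhesion gene Cntn1 (3.18, SE 0.42). Cntnap2, a contactin-associated gene linked to autism, was the one called lower, from 51.4, 58.1 and 66.9 CPM to 25.0 and 14.5 (-1.58, SE 0.53, adjusted p = 0.0382). That call was lost in each of the 5 leave-one-out fits: without progenitor library 2 (0.0575), 4 (0.0618) or 5 (0.0887) and without neuron library 2 (0.0892) or 4 (0.282).

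Among receptors for glutamate and GABA, 19 of 32 were called higher, the other 13 were not called, and all 32 had a positive log2 fold change (median 3.36). The GABA receptor subunit gene Gabra3 was at 0.387, 0.236 and 0.0496 CPM in the progenitors and 32.2 and 18.5 in the neurons (6.66, SE 0.63, adjusted p = 2.26e-06). For the AMPA receptor subunit gene Gria1 the values were 0, 0.570 and 0.0992 CPM against 17.1 and 21.3 (6.33, SE 0.99), and for the obligatory NMDA receptor subunit gene Grin1 they were 1.57, 3.09 and 1.54 against 44.9 and 23.1 (4.03, SE 0.50). Gabbr2, a subunit of the metabotropic GABA receptor, gave 5.01 (SE 0.61) and Grm5, a metabotropic glutamate receptor, 5.14 (SE 0.76). Of the 3 genes given by library, Grin1 had the highest progenitor levels, and in each both neuron libraries were above every progenitor library. Leaving out each library in turn, 13 of the 19 stayed called each time.

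Ion channel genes were next. Of 31 potassium channel genes, 16 were called higher and the other 15 were not called (median 2.42), with 9 kept in every leave-one-out fit and 9 called without neuron library 2. Kcnd2, an A-type channel, was at 0.809, 1.77 and 0.843 CPM in the progenitors and 30.0 and 14.4 in the neurons (4.26, SE 0.59). The calcium-activated channel gene Kcnma1 gave 4.13 (SE 0.60), Kcnip4, an A-type auxiliary subunit, 4.06 (SE 0.60) and Kcna4 3.64 (SE 0.56). Of 22 sodium and calcium channel genes, 11 were called higher and the other 11 were not called (median 1.71), and 5 of the 11 held in every leave-one-out fit, with 7 called without progenitor library 2, 6 without neuron library 2 and 7 without neuron library 4. The calcium channel gene Cacna1e rose from 3.57, 6.52 and 7.69 CPM to 98.8 and 55.6 (3.71, SE 0.40), and the sodium channel genes Scn2a1 (3.29, SE 0.48) and Scn1a (2.69, SE 0.43) rose with it.

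**Figure D2:**
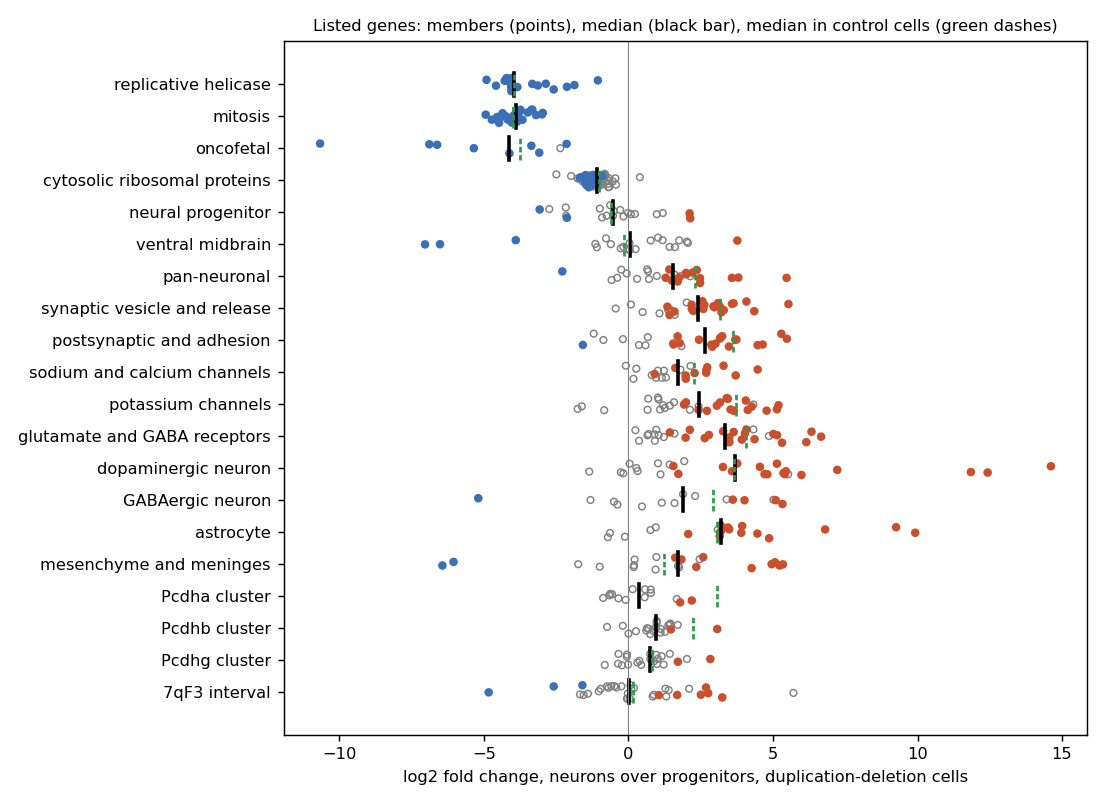
Log2 fold change of neurons over progenitors in duplication-deletion cells for each member of 20 gene lists; filled points were called, black bars are list medians and green dashes are the medians of the same lists in control cells. Cell cycle and oncofetal lists lie at medians between -4.12 and -3.88, synaptic, channel and receptor lists at 1.71 to 3.36, and the largest gap to control is that of the Pcdha cluster, 0.35 against 3.07.

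Among the neuron subtype lists, the dopaminergic one had the most called members. Of 28, 17 were called higher, the other 11 were not called, and the median was 3.67, with summed levels of 690, 1126 and 354 CPM in the progenitors and 3419 and 1658 in the neurons. Ddc, the enzyme that makes dopamine from L-DOPA, was at 4.65, 4.03 and 4.86 CPM in the progenitors and 297 and 86.7 in the neurons (5.41, SE 0.50, adjusted p = 1.76e-06). Th, the rate-limiting enzyme before it, was at 0.616, 13.7 and 0.744 CPM against 193 and 45.2 (4.55, SE 1.29, adjusted p = 0.0167). For both, neuron library 2 was the higher, and for Th progenitor library 4 stood above the other progenitors. The Th call was lost without neuron library 2 (adjusted p = 0.164), progenitor library 2 (0.0551) or progenitor library 5 (0.059).

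The plasma membrane dopamine transporter gene Slc6a3 was at 0, 0.0590 and 0.0496 CPM in the progenitors and 171 and 82.3 in the neurons (11.84, SE 1.49, adjusted p = 3.23e-05). The vesicular transporter gene Slc18a2 was deposited as a pair of entries with the same coordinates, and the entry with the standard symbol was not called (0, 3.26 and 0 CPM against 90.5 and 13.9; 5.52, adjusted p = 0.174). Their sum was at 10.7, 10.4 and 5.33 CPM in the progenitors and 94.5 and 45.5 in the neurons (2.98, SE 0.45, adjusted p = 0.000121), a sum taken after the data were seen. Both transporters were thus highest in neuron library 2, and neither overlapped between the stages once the entries were summed.

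The receptor subunit genes Chrna6 and Chrnb3, which build nicotinic receptors of dopaminergic axons, were near or at 0 in the progenitors and at 102 and 16.7 CPM and at 96.1 and 31.6 CPM in the neurons. Chrna6 had a log2 fold change of 12.42 (SE 1.51), and Chrnb3, with 0 counts in every progenitor library, was at least 2629-fold higher, taking 3 counts over the 3 progenitor libraries as the floor. Aldh1a1, which marks ventral dopaminergic neurons, rose by 7.22 (SE 0.89), the GDNF receptor gene Ret by 4.71 (SE 0.93) and the cofactor enzyme gene Gch1 by 4.81 (SE 0.64).

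Transcription factors of the lineage were less uniform. Nr4a2, which encodes NURR1, was at 19.8, 125 and 7.44 CPM in the progenitors and 244 and 144 in the neurons (1.93, adjusted p = 0.216); progenitor library 4 was close to neuron library 4. Pitx3 was at 0, 0.177 and 0 CPM against 7.25 and 1.39 (5.98, SE 1.58, adjusted p = 0.0108) and was not called without neuron library 2 (0.106). En1, a survival factor of these neurons, rose from 4.72, 9.45 and 7.39 CPM to 155 and 40.0 (3.77, SE 0.73). Foxa2 (-0.18) and Lmx1a (0.04), which act earlier, were not called and overlapped between the stages, and neither was Lmx1b called (1.02, adjusted p = 0.294). Of the 17 members called, 10 stayed called in every leave-one-out fit, and 10 were called without neuron library 2.

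The early midbrain patterning list held 1 of 22 members called higher, En1, and 3 lower, with a median of 0.04; without progenitor library 4, 5 were called higher. Msx2 fell from 6.19, 20.3 and 30.3 CPM to 1.16 and 1.38 (-3.90, SE 0.71). The organiser signal Wnt1 was at 0.757, 4.76 and 3.08 CPM against 0.0597 and 0 (-6.52, SE 1.46), and was lost without neuron library 4 (adjusted p = 0.0552). Fgf8 was at 0.176, 0.197 and 0.645 CPM in the progenitors and 0 in both neuron libraries, at least 9.26-fold lower with the same floor over the neuron libraries; it was lost without progenitor library 5 (0.0723), neuron library 2 (0.17) or neuron library 4 (0.174). The floor plate signal Shh (-1.09) and the midbrain factor Otx2 (-0.78, adjusted p = 0.0543) were not called.

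Few regional genes outside the midbrain were called, near or below the shares over all genes tested (12.0% higher, 11.6% lower). The forebrain list had a median of 0.79, and 11 of its 17 tested members had a positive log2 fold change. In the forebrain list 2 of 17 were called, both lower: Lhx2 (-5.19) and Sim1 (-3.86); Lhx2 was lost without neuron library 2 (adjusted p = 0.0503) and Sim1 without neuron library 4 (0.0689). Of the 20 hindbrain and spinal cord genes, 9 passed the filter on low counts and 8 Hox genes were at 0 in all 5 libraries. Gbx2 alone was called, with 0 counts in the neurons and at least 31.7-fold lower there, and was lost without neuron library 2 (0.0747) or 4 (0.0785).

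Other transmitter types were present at lower counts of members. In the serotonergic and noradrenergic list, 4 of 13 were called higher and the other 9 were not called. Tph2, which makes serotonin in neurons, was at 0, 0.118 and 0.0992 CPM in the progenitors and 30.4 and 20.6 in the neurons (8.55, SE 1.32, adjusted p = 0.000186), the serotonin transporter gene Slc6a4 rose by 6.84 (SE 1.21) and the serotonergic factor gene Fev by 7.23 (SE 1.23). The noradrenaline transporter gene Slc6a2 (5.64) was lost without progenitor library 2 (adjusted p = 0.0601) or neuron library 4 (0.132).

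In the GABAergic list, 4 of 15 were called higher and 1 lower (median 1.89). The GABA synthesis genes Gad1 (1.90, 1.28 and 0.298 CPM against 20.4 and 9.13; 3.61, SE 0.83) and Gad2 (2.87, 1.89 and 0.397 against 40.8 and 16.5; 4.02, SE 0.94) rose, and the neuropeptide gene Npy by 5.09 (SE 1.05). Gad2 lost its call without neuron library 2 (adjusted p = 0.0513). Tal2, a factor of midbrain GABAergic precursors, fell by 5.19 (SE 1.29) and was lost without neuron library 2 (0.0505) or 4 (0.101).

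In the glutamatergic list 2 of 14 were called higher, Neurod6 (7.04, SE 1.20) and the vesicular transporter gene Slc17a8 (4.81, SE 1.42), and 1 lower, Barhl2 (-2.80, SE 0.80). Slc17a8 was lost without progenitor library 2 (adjusted p = 0.0767) or 5 (0.0647) and without neuron library 2 (0.0746) or 4 (0.0557), and Barhl2 without neuron library 2 (0.109) or 4 (0.136). In the cholinergic and motor neuron list 1 of 6 tested members was called. Isl2, at 1.11, 0.413 and 2.43 CPM in the progenitors and 0 in the neurons, was at least 37.3-fold lower.

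Of 36 axon guidance genes, 5 were called higher and 4 lower (median 0.31), near the shares over all genes tested (12.0% and 11.6%). Among receptors, Plxna4 rose from 6.62, 10.5 and 10.2 CPM to 62.5 and 42.0 (2.52, SE 0.36), Unc5a by 3.46 (SE 0.66) and Plxnc1 by 1.46 (SE 0.40), while Epha4 fell from 139, 166 and 142 CPM to 20.2 and 36.8 (-2.39, SE 0.36) and Epha7 by 1.53 (SE 0.39). Among ligands, Efnb3 rose from 37.6, 88.2 and 24.6 CPM to 593 and 926 (3.92, SE 0.64) and Sema6d by 2.42 (SE 0.42), while Sema3c and Sema3d each fell by 2.05. Of the calls, 4 of the 5 higher and 1 of the 4 lower held in every leave-one-out fit. Without neuron library 2 the lower calls numbered 1 and without neuron library 4 they numbered 2; the higher calls numbered 8 without progenitor library 4. Plxnc1 was lost without neuron library 2 (adjusted p = 0.144), Epha7 without neuron library 2 (0.121) or 4 (0.0517), Sema3c without progenitor library 5 (0.0843), neuron library 2 (0.205) or neuron library 4 (0.0966), and Sema3d without progenitor library 2 (0.0597) or neuron library 2 (0.253).

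The BAF chromatin remodelling complex exchanges subunits when progenitors become neurons. Both progenitor subunits on the list that were called fell: Actl6a from 97.4, 75.2 and 80.4 CPM to 11.5 and 11.8 (-2.85, SE 0.37, adjusted p = 3.72e-05) and Ss18 from 125, 104 and 137 CPM to 34.5 and 56.8 (-1.42, SE 0.26). Their neuronal counterparts rose, Actl6b from 2.76, 9.35 and 3.62 CPM to 29.7 and 16.2 (2.12, SE 0.65) and Ss18l1 from 22.1, 27.5 and 15.2 CPM to 78.9 and 44.9 (1.52, SE 0.34). The ATPase gene Smarca2 rose by 1.96 (SE 0.37) and Smarcd3 by 1.3 (SE 0.35). In all, 4 of 17 were called higher and 2 lower, and 3 of these 6 held in every leave-one-out fit. Without neuron library 2 only Smarca2 of the 4 was left: Actl6b was at an adjusted p of 0.19 there, Ss18l1 at 0.0852 and Smarcd3 at 0.136. Without progenitor library 2 Actl6b (0.0965) and Smarcd3 (0.0526) were lost, and without progenitor library 5 Actl6b (0.0745).

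Among 17 splicing regulators, 3 were called, all lower. They were Ptbp1, the repressor of neuronal exons (181, 242 and 168 CPM against 87.2 and 101; -1.06, SE 0.29), Celf1 (-1.36, SE 0.34) and Elavl1 (-0.88, SE 0.21). None held throughout: Ptbp1 was lost without progenitor library 4 (adjusted p = 0.0537), neuron library 2 (0.155) or neuron library 4 (0.0718), Celf1 without neuron library 4 (0.107) and Elavl1 without neuron library 4 (0.0971).

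Of 27 genes for DNA methylation and chromatin, 2 were called higher and 12 lower (median -0.75), with 7 lower without progenitor library 2, 3 without neuron library 2 and 4 without neuron library 4. Uhrf1, which recruits the maintenance methyltransferase to replicating DNA, was at 315, 198 and 141 CPM in the progenitors and 7.03 and 10.4 in the neurons (-4.64, SE 0.52, adjusted p = 8.40e-06), and Mbd3, a subunit of the NuRD complex, fell by 1.87 (SE 0.40). The de novo methyltransferase gene Dnmt3a was at 42.8, 69.7 and 70.4 CPM against 102 and 109 (0.79, SE 0.24, adjusted p = 0.0224), and Dnmt3b at 14.3, 10.8 and 11.3 against 1.77 and 0.923 (-3.17, SE 0.93). Dnmt3a was not called without progenitor library 2 (adjusted p = 0.093), neuron library 2 (0.0758) or neuron library 4 (0.13), nor Dnmt3b without neuron library 2 (0.0855) or 4 (0.171). The insulator gene Ctcf was at 104, 97.7 and 69.3 CPM against 51.4 and 55.7 (-0.76, SE 0.25, adjusted p = 0.0383); its call was lost without progenitor library 2 (0.117) or 4 (0.0976) and without neuron library 2 (0.248) or 4 (0.152). The cohesin subunit gene Stag1 fell by 1.17 (SE 0.25), and Uhrf1, Mbd3 and Stag1 were the 3 of the 12 that held in every leave-one-out fit; neither gene called higher did.

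Markers of other cell types were measured in the same libraries. Of 19 astrocyte genes, 13 were called higher and the other 6 were not called (median 3.20), and their summed level was 761, 773 and 581 CPM in the progenitors and 2851 and 3161 in the neurons. Gfap, the astrocytic intermediate filament, was at 0.0352, 0 and 0.248 CPM against 34.8 and 43.7 (9.26, SE 1.00, adjusted p = 6.49e-06). The sodium pump subunit gene Atp1b2 (6.80, SE 0.75), the gap junction gene Gjb6 (9.92, SE 1.48), the water channel gene Aqp4 (4.87, SE 0.73), the folate enzyme gene Aldh1l1 (3.93, SE 0.50) and the gliogenic factor Nfib (3.48, SE 0.43) rose, while Slc1a2 (0.95), Gja1 (-0.12) and S100b (3.09, adjusted p = 0.115) were not called. In contrast to the dopaminergic genes, neuron library 4 held the higher sum. Of the 13, 11 held in every leave-one-out fit. The part of such cells in the neuron-stage values above was not tested.

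Genes of motile cilia, used by ependymal and choroid plexus cells, also rose. In the mixed list of choroid plexus and ciliated cells, 5 of 12 members were called higher and the other 7 were not called. All 5 held in every leave-one-out fit. The summed level of the whole list was 108, 124 and 87.6 CPM in the progenitors and 249 and 387 in the neurons. Foxj1, the regulator of motile cilia, was at 2.39, 16.4 and 2.73 CPM against 83.1 and 133 (3.90, SE 0.88), and the axonemal genes Ccdc39 (3.31, SE 0.48), Dnahc5 (3.37, SE 0.60) and Rsph1 (5.38, SE 1.24) moved with it. Among the 10 largest rises of all genes, Ubxn10 and Iqca, both linked to cilia, had 0 counts in the progenitors and were at least 652-fold and 446-fold higher, and Ttc29, an axonemal gene, at least 462-fold. Each of the 3 was higher in neuron library 4. The choroid plexus genes Ttr (0.158, 0.334 and 0.0496 CPM against 0.219 and 3.55) and Folr1 (1.77) were not called.

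Mesenchymal and meningeal markers were split, with 9 of 21 called higher and 2 lower (median 1.72). Dcn, a matrix proteoglycan of fibroblasts and meninges, was at 10.5, 8.94 and 12.5 CPM in the progenitors and 314 and 400 in the neurons (5.07, SE 0.66), and Bgn, a related proteoglycan, at 2.09, 2.59 and 1.49 CPM against 61.5 and 107 (5.34, SE 0.71). Col6a1 (4.26, SE 0.59), Col6a2 (4.95, SE 0.73) and Col6a3 (5.23, SE 0.97), chains of 1 collagen, rose together. The smooth muscle genes Acta2 (394, 143 and 4243 CPM against 12.0 and 36) and Tagln (93.5, 40.3 and 1606 against 4.22 and 9.16) were called lower, at -6.05 (SE 1.5) and -6.44 (SE 1.74). Progenitor library 5 stood far above the other progenitors in both, and summed over the list it held 7460 CPM, against 1380 and 1377 in progenitor libraries 2 and 4 and 2047 and 4409 in the neurons. Without that library Tagln was not called (adjusted p = 0.0733); Acta2 was not without neuron library 2 (0.103) or 4 (0.052), nor Tagln without neuron library 2 (0.136) or 4 (0.0945). Leaving out neuron library 4, 5 of the list were called higher, and 5 of the 9 held in every leave-one-out fit.

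Further lists held few calls. In the endothelial and blood list, 2 of 9 tested members rose, Cdh5 (0.141, 0.0786 and 0.0496 CPM against 20.2 and 39.4; 8.24, SE 1.35) and Tie1 (7.58, lost without progenitor library 2 at an adjusted p of 0.0531), and the embryonic globin Hbb-bh1 was at least 549-fold lower. Embryonic globins stood among the 10 largest falls of all genes: Hba-x was at 62.2, 24.3 and 17.5 CPM in the progenitors and at 0 in the neurons, at least 1437-fold lower. In the oligodendrocyte list, Pdgfra (6.39, 16.4 and 8.33 CPM against 66.6 and 180; 3.57, SE 0.68) and Cnp (1.77) rose; Cnp was lost without progenitor library 2 (0.0526) or neuron library 4 (0.115). In all, 2 of the 12 members were called higher and 1 lower. Olig2 was at 3.75, 2.20 and 1.24 CPM against 6.43 and 1.08 and was not called. In the neural crest list 2 of 14 members were called, Pax3 (-4.95) and Tcfap2c (at least 17.1-fold lower), Pax3 lost without neuron library 2 (0.0715) or 4 (0.102) and Tcfap2c without neuron library 2 (0.0601) or 4 (0.0641). In the muscle list Ryr1 (2.55) and Actc1 (-6.35) were called of 11, Ryr1 lost without neuron library 2 (0.0661) and Actc1 without progenitor library 5 (0.114), where it was highest, or neuron library 2 (0.177) or 4 (0.0658). In the pluripotency list Esrrb (-3.03) and Dnmt3b were called of 13 tested, Esrrb lost without neuron library 2 (0.0544) or 4 (0.0961), and Pou5f1 did not exceed 0.446 CPM. In the microglia and macrophage list, Tyrobp and Trem2 were at 0 in all 5 libraries, but the list's sum was not. It was 6.39, 8.43 and 40.7 CPM in the progenitors and 4.14 and 5.87 in the neurons. Progenitor library 5 lay above the control progenitor range of 6.78 to 19.98 CPM, and progenitor library 2 below it. Of the 5 tested members edgeR called 0, with 0 at an unadjusted p under 0.05 and 0 by DESeq2. In the endoderm and epithelium list edgeR called 0 of 11, with 3 lower at an unadjusted p under 0.05 and 2 by DESeq2. Afp and Hnf4a were at 0, while the list summed to 52.2, 57.9 and 177 CPM in the progenitors and 12.1 and 86.2 in the neurons. Neuron library 4 lay above the control neuron range of 2.63 to 16.3 CPM.

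**Figure D3:**
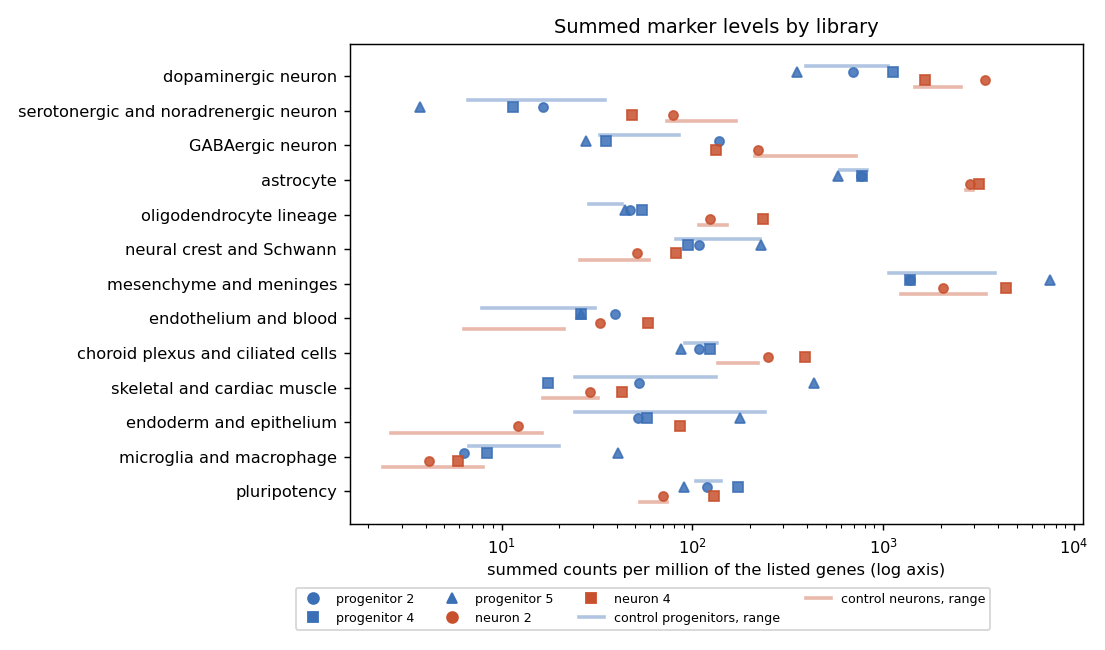
Summed CPM of cell type lists in the 5 duplication-deletion libraries, with bars for the range of control libraries at the same stage. Dopaminergic sums rise from 354 to 1126 CPM to 3419 and 1658, and astrocyte sums from 581 to 773 CPM to 2851 and 3161. Several sums lie above the control range of their stage, among them the mesenchymal sum of progenitor library 5 (7460). In neuron library 4 the mesenchymal (4409), choroid plexus and ciliated (387) and endothelial and blood (58.4) sums do too. The GABAergic sum of neuron library 4 (132) lies below it.

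Cells at the 2 stages also differed in housekeeping genes. Of 55 cytosolic ribosomal protein genes, 18 were called lower and the other 37 were not called (median -1.08), and 54 had a negative log2 fold change. Their summed level was 19155, 15302 and 23824 CPM in the progenitors and 9509 and 9482 in the neurons. Rpl5 had the smallest p of the list, at 743, 426 and 564 CPM against 241 and 229 (-1.29, SE 0.30, adjusted p = 0.00457). All progenitor sums were above both neuron sums, yet none of the 18 calls held in every leave-one-out fit: 6 members were called without progenitor library 5, and 0 without neuron library 2 or without neuron library 4. Rpl5 was at 0.0517 and 0.059 there. Of 24 genes of oxidative phosphorylation, 4 were called, all lower (median -0.76), of which Ndufa4 (-1.77, SE 0.36) held in every leave-one-out fit and Cycs (-1.60), Atp5b (-1.18) and Ndufs1 (-0.87) did not; 1 was called without neuron library 2 and 1 without neuron library 4. Cycs had an adjusted p of 0.0842 and 0.0731, Atp5b of 0.148 and 0.156 and Ndufs1 of 0.099 and 0.153 in those fits, and Atp5b was lost without progenitor library 5 (0.0973) and Ndufs1 without progenitor library 2 (0.0758).

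Of 21 glycolysis genes, 8 were called higher and 1 lower (median 0.77), and 6 of the 8 held in every leave-one-out fit. Those with the smallest p were Eno2, the neuronal enolase, which rose from 1.72, 3.87 and 3.72 CPM to 33.7 and 21.0 (3.15, SE 0.42), the platelet-type phosphofructokinase gene Pfkp, from 7.65, 9.16 and 8.68 CPM to 119 and 98.6 (3.68, SE 0.34), Hk1 by 2.59 (SE 0.52) and the brain aldolase gene Aldoc, also an astrocyte marker, by 3.90 (SE 0.60). The other 4 were the isomerase gene Gpi1 (1.73, SE 0.41) and the pyruvate dehydrogenase kinase gene Pdk1 (1.93, SE 0.44), which held in every leave-one-out fit, and Pfkm (0.69, SE 0.24) and Aldoa, which did not. Pkm2, whose entry covers the pyruvate kinase gene, fell from 1183, 1251 and 1104 CPM to 515 and 494 (-1.23, SE 0.31), and was lost without neuron library 2 (adjusted p = 0.0809) or 4 (0.089).

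For cholesterol synthesis, 6 of 21 genes were called, all lower (median -0.69, against -0.05 in control cells). The isomerase gene Idi1 fell from 147, 93.8 and 110 CPM to 33.6 and 32.6 (-1.82, SE 0.39) and held in every leave-one-out fit. In all, 3 of the 6 held throughout, and 3 of the list were called without neuron library 4. Cyp51 (-1.24) was lost without progenitor library 2 (adjusted p = 0.0649), neuron library 2 (0.0807) or neuron library 4 (0.155), Hsd17b7 (-1.40) without neuron library 2 (0.0604) or 4 (0.0528), and Dhcr7 (-1.24) without neuron library 4 (0.126).

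Of 32 imprinted genes, 8 were called higher and 4 lower (median 0.25). Dlk1 and Meg3, expressed from opposite parental copies of 1 domain, rose from 2.18, 3.26 and 5.95 CPM to 138 and 41.5 (4.58, SE 0.57) and from 93.0, 113 and 210 CPM to 872 and 557 (2.37, SE 0.42). Rasgrf1, a neuronal exchange factor, rose by 5.01 (SE 1.13). Mest, highly expressed in the embryo, fell from 1309, 1271 and 1118 CPM to 152 and 208 (-2.78, SE 0.44, adjusted p = 0.000207). Ddc is on this list as well. These 5 genes held in every leave-one-out fit and the other 7 calls did not, so that 4 were higher without neuron library 2 and 5 without neuron library 4, while 1 was lower without progenitor library 2, neuron library 2 or neuron library 4 and 2 without progenitor library 5. Ndn, a growth-restraining gene of the Snrpn domain, was at 7.11, 11 and 0.248 CPM against 40.6 and 27.1 (2.44, SE 0.68) and was lost without neuron library 2 (adjusted p = 0.0951).

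Clustered protocadherins give neurons their surface identity, and the study's title links them to this locus. Their entries overlap one another and share exons (Pcdha, Pcdhg) or are close copies (Pcdhb), so the count of a single isoform is uncertain. In the Pcdha cluster, 2 of 14 were called, both higher (12.0% of all genes were), with a median of 0.35 against 3.07 in control cells. The summed level was 23.5, 43.6 and 71.3 CPM in the progenitors and 86.9 and 64.7 in the neurons; progenitor library 5 lay between the neuron libraries. In control cells the sums were 8.18 to 13.8 CPM in the progenitors and 58.7 to 133 in the neurons, so that the duplication-deletion progenitors were above the control range and their neurons within it. In deletion cells they were 18.9 to 23.7 CPM in the progenitors, also above the control range, and 80.0 to 121 in the neurons. The members called were Pcdha12 (1.72, 2.83 and 1.54 CPM against 12.4 and 6.25; 2.19, SE 0.56) and the C-type isoform gene Pcdhac2 (4.61, 2.99 and 5.11 against 19.5 and 9.63; 1.79, SE 0.49). Both were lost without neuron library 2, at adjusted p-values of 0.122 and 0.193.

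The Pcdhb cluster had 2 of 22 called, both higher (median 0.96, control 2.24), though 20 had a positive log2 fold change. Its sums were 170, 342 and 193 CPM in the progenitors and 439 and 421 in the neurons, and all 3 progenitor sums were above the control progenitor range of 30.2 to 93.3 CPM; both neuron sums were above the control neuron range of 170 to 336. The deletion sums, 91.9 to 259 CPM in the progenitors and 362 to 415 in the neurons, lay above the control range in the neurons too and overlapped with those of the duplication-deletion progenitors. Pcdhb9 (3.07, SE 0.78) was lost without neuron library 2 (adjusted p = 0.0672), and Pcdhb14 (1.47, SE 0.43) without progenitor library 2 (0.0758) or 5 (0.052) or neuron library 2 (0.0547) or 4 (0.131). In the Pcdhg cluster the C-type genes Pcdhgc3 (37.5, 92.3 and 65.1 CPM against 214 and 211; 1.71, SE 0.36) and Pcdhgc4 (1.88, 4.56 and 2.33 against 26.2 and 15.7; 2.83, SE 0.46) were called higher of 22 (median 0.76, control 0.83) and held in every leave-one-out fit. Without progenitor library 4, 5 Pcdhb and 7 Pcdhg genes were called.

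The difference between the duplication-deletion and control transitions was tested for each of these genes. In the Pcdha cluster 6 of 14 and in the Pcdhb cluster 5 of 22 had an unadjusted p under 0.05 in edgeR, where 970 of 18797 genes did, each with the lower log2 fold change in duplication-deletion cells; the smallest p was that of Pcdhb22 (-0.74 against 0.91 in control cells, adjusted p = 0.892). With edgeR none of them passed after adjustment over all genes, while DESeq2 called Pcdhb22 (-1.64, adjusted p = 0.021) and no other gene of these clusters. Against the deletion transition 0 of the 14 and 0 of the 22 had an unadjusted p under 0.05 in the main edgeR fit. The numbers against control moved with single libraries: without neuron library 4 of the duplication-deletion cells they were 2 Pcdha, 4 Pcdhb and 381 of all genes, without neuron library 2 they were 2 and 3, without progenitor library 5 they were 2 and 6, without control progenitor library 3 they were 8 and 12, and without control neuron library 3 they were 6 and 5 with 596 of all genes. Without control neuron library 2 they were 4 and 5 with 1365 of all genes. With the replicate number as a block they were 4 and 12, and with a block of the number within each stage, chosen after the data were seen, 7 and 15 (997 of all genes). Against the deletion transition the replicate block gave 1 Pcdha and 0 Pcdhb genes and the block within each stage 4 and 0, each with the lower log2 fold change in duplication-deletion cells. The deletion transition had medians of 2.31 for Pcdha, 1.28 for Pcdhb and 0.93 for Pcdhg. Of 11 non-clustered protocadherins, 3 were called higher, Pcdh10 (17.4, 18.2 and 8.98 CPM against 109 and 83.9; 2.69, SE 0.54), Pcdh20 (2.20, SE 0.53) and Pcdh1 (1.72, SE 0.46), and 1 lower, Pcdh18 (-1.53, SE 0.46). Pcdh1 was lost without neuron library 2 (adjusted p = 0.164), and Pcdh18 without progenitor library 5 (0.139) or neuron library 2 (0.263).

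The 7qF3 genes were then followed through the transition. Between Giyd1, the entry for Slx1b, and Sept1 (mm9 chr7:133832441-134361959), 29 genes were tested. Of these, 4 were called higher and 2 lower, where 12.0% and 11.6% of all genes were, with a median of 0.04. In the same stretch 8 were higher and 6 lower in control cells, where 23.0% and 20.4% of all genes were called, and 6 and 6 in deletion cells, where 14.6% and 13.8% were. Of the wider list, 3 genes have no coordinates in the table, Aldoa among them, and 4 lie outside the stretch.

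The chromosome-binding kinesin gene Kif22 had the largest change among the called genes of the stretch, from 56.0, 45.7 and 51.2 CPM in the progenitors to 1.51 and 2.06 in the neurons (-4.83, SE 0.43, adjusted p = 1.49e-06). It is a mitotic gene, and its promoter, shown here for comparison with those of Top2a and Ube2c (RefSeq, GRCm38.p6, chr7:127042421-127042620, minus strand, 200 bases before the start), holds a CHR match 17 bases before the start, in capitals.
Kif22, CHR letters: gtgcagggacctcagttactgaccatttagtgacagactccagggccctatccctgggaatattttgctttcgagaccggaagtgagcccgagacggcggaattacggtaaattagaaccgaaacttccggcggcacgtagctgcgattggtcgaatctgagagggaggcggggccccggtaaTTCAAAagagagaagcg
The phosphatase catalytic subunit gene Ppp4c was at 46.5, 58.4 and 79.9 CPM against 20.3 and 20.6 (-1.59, SE 0.46, adjusted p = 0.0185). That call was lost without progenitor library 5 (0.0634), neuron library 2 (0.131) or neuron library 4 (0.119), although the stages did not overlap.

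The genes of the stretch that were called higher were Prrt2, Ypel3, Sez6l2 and Kctd13. Prrt2, a presynaptic protein gene mutated in paroxysmal movement disorders, was at 1.25, 9.22 and 4.76 CPM in the progenitors and 43.3 and 52.9 in the neurons (3.24, SE 0.68, adjusted p = 0.00218). Ypel3 was at 1.67, 4.54 and 4.27 CPM against 29.9 and 17.2 (2.76, SE 0.55), and Sez6l2, a neuronal membrane protein gene, at 1.64, 10.0 and 1.93 against 39.7 and 19.1 (2.68, SE 0.82). Kctd13, an adaptor of a ubiquitin ligase, was at 9.89, 13.5 and 7.64 CPM against 41.9 and 24.8 (1.69, SE 0.51, adjusted p = 0.022). In all 4 genes both neuron libraries were above every progenitor library. Sez6l2 was not called without progenitor library 2 (0.0896), progenitor library 5 (0.0776) or neuron library 2 (0.177), nor Kctd13 without progenitor library 2 (0.0652), progenitor library 5 (0.0701) or neuron library 2 (0.197).

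Others did not pass the threshold or barely did. Aldoa, a glycolytic aldolase, was at 111, 166 and 168 CPM in the progenitors and 264 and 351 in the neurons (1.05, SE 0.37), with an adjusted p of 0.04997 that rose to between 0.0601 and 0.278 when any of the 5 libraries was left out. The kinase gene Mapk3, which encodes ERK1, was at 19.5, 24.5 and 30.3 CPM against 49.3 and 39.3 (0.84, SE 0.34, adjusted p = 0.0796), with no overlap between the stages. Taok2, another kinase, was at 52.5, 63.2 and 69.6 CPM against 67.2 and 65.2 (0.10, adjusted p = 0.852), and the transcription factor Maz at 44.3, 81.9 and 56.2 against 64.3 and 55.5 (-0.02, adjusted p = 0.978, with the sign turning under other scalings); in both, the stages overlapped. Coro1a, an actin regulator, was at 1.95, 2.02 and 2.88 CPM against 2.87 and 1.53 (-0.05), where control cells had 2.61 and deletion cells 2.14; the difference from control had an unadjusted p of 0.0469 and an adjusted p of 0.892.

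**Figure D4:**
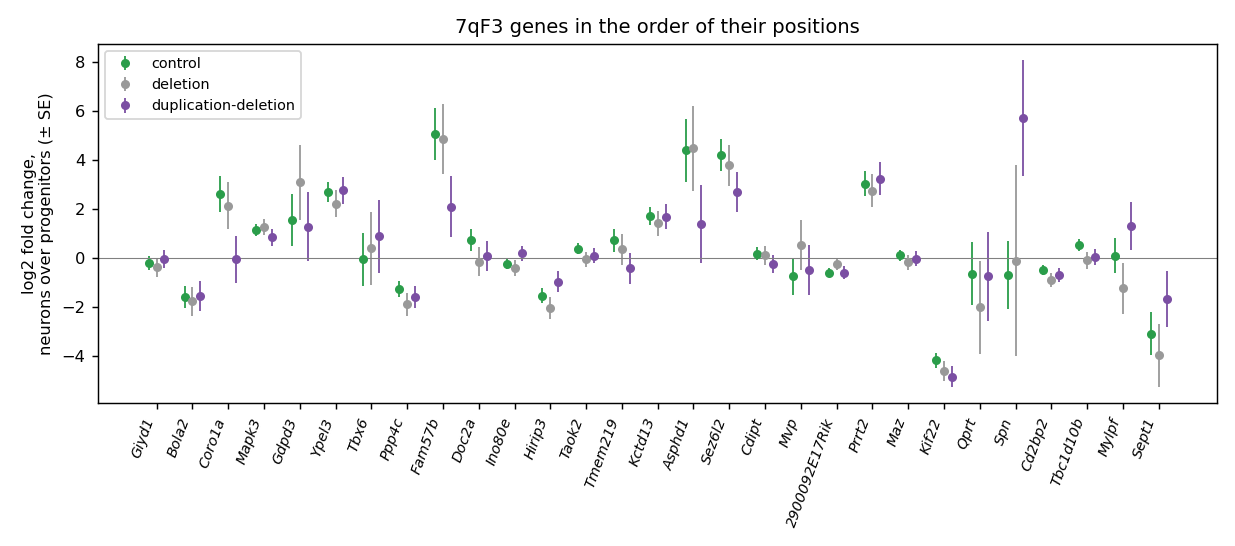
Log2 fold change of neurons over progenitors, with SE, for the 7qF3 genes in chromosome order in control, deletion and duplication-deletion cells. Kif22 lies lowest in all 3 genotypes (-4.83 in duplication-deletion cells), Prrt2 and Ypel3 lie at 3.24 and 2.76, and Coro1a lies at -0.05 in duplication-deletion and 2.61 in control cells.

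Levels of the interval genes can be set beside the other genotypes. Mapk3 spanned 16.1 to 26.3 CPM in control and 6.86 to 18.5 in deletion progenitors, and 43.6 to 54.9 in control and 27.2 to 28.5 in deletion neurons, so the duplication-deletion values of 19.5 to 30.3 and 39.3 to 49.3 lay above the deletion range at both stages. Taok2 spanned 51.6 to 64.9 CPM in control progenitors and 52.9 to 95.6 in control neurons, and 25.1 to 39.6 and 19.7 to 38.6 in deletion cells, again below all duplication-deletion values. Ppp4c also lay above the deletion range at both stages. Aldoa overlapped with it in progenitors (111 to 168 against 63.5 to 118 CPM) and in neurons (264 to 351 against 297 to 498). Kctd13 (7.64 to 13.5 against 3.28 to 8.92) and Maz (44.3 to 81.9 against 37.1 to 49.6) overlapped with it in progenitors and lay above it in neurons. These are descriptions of ranges, with no test.

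The transition as a whole was compared with those of the other genotypes, which share no library with it. Across 11990 genes with a mean of at least 5 CPM, the log2 fold changes correlated with those of control cells at a Pearson r of 0.90 and with those of deletion cells at 0.88, and across all 18797 genes at 0.71 and 0.67; genes are not independent replicates, so no p is given. Of the 4435 genes called, 4413 (99.5%) had the same sign in control cells and 4063 (91.6%) were called there in the same direction, which is 49.8% of the 8157 genes called in the control transition (43.4% of those tested). In deletion cells, 4368 (98.5%) had the same sign and 3357 (75.7%) were called, which is 62.7% of the 5351 called there (28.5%). None of the 18797 genes was called in opposite directions with either. The control transition rests on 9 libraries against 5, so the numbers of calls are not a measure of the size of the change.

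**Figure D5:**
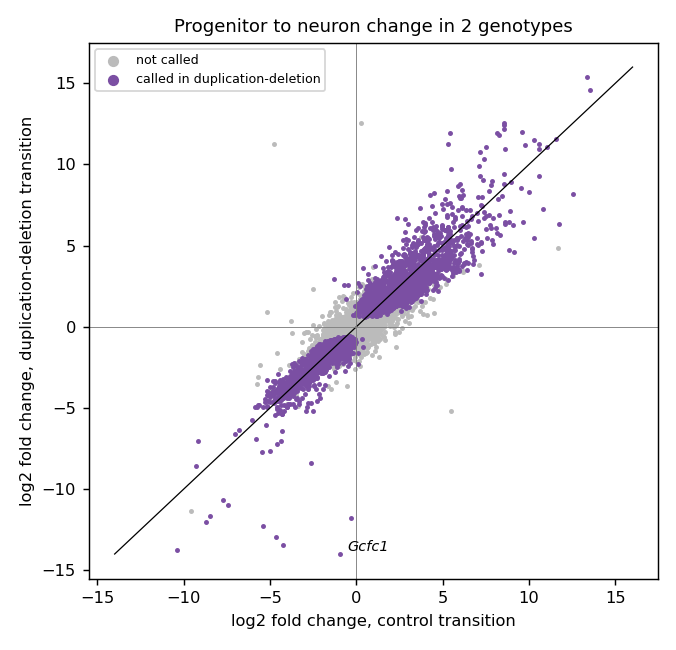
Log2 fold change of neurons over progenitors in control cells (x axis) against duplication-deletion cells (y axis), 1 point per gene, with genes called in duplication-deletion cells in purple. Most called genes lie along the diagonal (r = 0.90 for genes of at least 5 CPM), and Gcfc1, labelled, is the only gene for which edgeR called the difference (DESeq2 called 41, and edgeR 0 with entries of the same coordinates summed).

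The difference itself was called for 1 of 18797 genes against control cells (0.00532%) and for the same gene, 1 of 18797 (0.00532%), against deletion cells; 970 and 1156 genes had an unadjusted p under 0.05 (381 and 661 without neuron library 4), and DESeq2 called 41 and 21. The gene was Gcfc1, with a difference of -13.11 on the log2 scale from control and -12.52 from deletion cells. Its entry was at 51.2, 39.9 and 36.3 CPM in the progenitors and at 0 in both neuron libraries. A second entry with the same coordinates (mm9 chr16:91014282-91044624), C21orf66, was at 58.0, 47.7 and 41.0 CPM in the progenitors and 73.0 and 77.7 in the neurons. Both were summed in a separate edgeR fit with its own TMM scaling, so its CPM differ slightly from those of the single entries. There the sum was at 106, 86.3 and 77.6 CPM against 73.1 and 79.4 (-0.24, adjusted p = 0.491). With such entries summed, edgeR called 0 of 18607 genes in either difference (974 and 1142 at an unadjusted p under 0.05), with smallest adjusted p-values of 0.889 and 0.798. The summing was chosen after the data were seen.

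For the dopaminergic, oncofetal and mitosis genes the 3 transitions had close medians: 3.67, 3.66 and 3.15 for dopaminergic genes, -4.12, -3.74 and -4.00 for oncofetal genes and -3.88, -4.00 and -4.23 for mitosis genes in duplication-deletion, control and deletion cells. The pan-neuronal median was 1.55 against 2.31 in control and 1.69 in deletion cells, that of synaptic vesicle genes 2.40 against 3.18 and 2.24, and that of potassium channels 2.42 against 3.72 and 2.71. The difference from control had an unadjusted p under 0.05 in edgeR for 970 of all 18797 genes. It did for 4 of the 28 pan-neuronal genes and 0 of the 31 potassium channels. Against deletion cells it did for 0 pan-neuronal, 2 potassium channel and 1 synaptic vesicle genes and 2 receptors (1156 of all genes). The synaptic vesicle gene had the lower and the 2 receptors the higher log2 fold change in duplication-deletion cells. Against control 6 of the 28 synaptic vesicle genes and 7 of the 32 receptors had such a p in edgeR. The smallest was that of Syn2 (4.35 against 6.77, adjusted p = 0.892). DESeq2 called Syn2 (-2.42, adjusted p = 0.0232) and no other gene of these 2 lists. Leaving out 1 library gave 1 to 7 and 2 to 9 genes, with 1 and 2 without neuron library 4. Tubb3 stood at 409 to 516 CPM in duplication-deletion progenitors, 210 to 430 in control progenitors and 188 to 486 in deletion progenitors.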

How the data were processed

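Total RNA of 28 libraries was sequenced after a stranded total RNA preparation, per the labels; the 5 duplication-deletion, 9 control and 5 deletion libraries of the progenitor and neuron stages were used, and 6 Hi-C samples were not analysed here. The authors deposited expected counts per gene, and the submitters' processing notes name RSEM 1.3.0, STAR 2.6.0c, DESeq2 1.22.2 and the build mm9; whether strand was used in counting is not given in the sources used here. Gene start and end positions (a unit of its own, bases on mm9) came from a second table that the authors deposited.

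Of 29968 entries, 92 spike-ins were left out, values were rounded to whole counts (6392 entries had fractions), and entries with low counts were removed by edgeR's default filter, leaving 18797. All 19 libraries entered 1 edgeR 4.0.16 quasi-likelihood fit (R 4.3.3, TMM scaling, limma 3.58.1 loaded), with 6 groups of stage and genotype. P-values were adjusted by Benjamini-Hochberg over all genes, with a threshold of 0.05. A prior count of 2 entered only log2 CPM values, not the fold changes. Those values served the principal components, the correlations of deviations and the check for single control libraries that lay apart. The contrasts were neurons minus progenitors in each genotype and the differences of these contrasts. A group at 0 was given a floor of 3 counts over the group for bounds on a fold. The fit was run on simulated counts with set fold changes, as a check of the code. That simulation had no effect of replicate number, so it cannot show how reliable calls from 2 neuron libraries are. Of 24 pairs of replicates, 0 held identical values.

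The members and the 44 gene lists (921 symbols, 909 matched by symbol, 9 by a synonym, 3 without an entry) were chosen with earlier results of these data known. Named were the 10 largest changes per direction with a mean of at least 5 CPM and no overlap, up to 4 called members of each list by smallest p (more where a list is described member by member), up to 8 genes per direction of a difference, and 19 genes always, such as Th, Tubb3 and Mapk3; genes named outside these rules were chosen after their values were seen. Alternatives were DESeq2 1.42.0, RLE scaling, no filter, the largest entry left out, a replicate block, only the duplication-deletion libraries and each library left out; summing entries with the same coordinates (398 share theirs) was added after the data were seen. No label says what a replicate number marks, so the main fit has no block; a block of the number within each stage was also added later. Promoters and microRNAs were read from RefSeq tables of GRCm38.p6, whose coordinates were not mixed with mm9. Some members of the lists are counted in them but not reported here by name.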

Additional observations from a re-analysis of the deposited data

Results flagged for a closer look

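Gcfc1 differed between the transitions, at -13.11 on the log2 scale against control cells and -12.52 against deletion cells, by a test of the difference itself (edgeR). Its entry shares its coordinates with C21orf66, and their sum did not differ, as described above. In control cells, single libraries lay apart from the rest of their group: Slc18a2 was at 12.1 CPM in progenitor library 4 and at 0 in neuron library 1, Tubb3 was at 724 CPM in neuron library 3, and Top2a was at 1022 CPM in progenitor library 1. Chance places about 1 in 20 groups of such sizes there, and the Slc18a2 entry is also split between a pair of entries. None of the duplication-deletion groups has enough libraries for this check.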

How the results depend on the processing

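The number of genes called in the duplication-deletion transition was 4262 with RLE scaling (2414 higher, 1848 lower, so 56.6% higher against 50.7%), 5417 with DESeq2 and 4349 without the largest entry. With a replicate block it was 4630, of which 3966 were shared, and each difference from another genotype still had 1 gene. With only the duplication-deletion libraries it was 2751 (1691 higher, 1060 lower), and with libraries 2 and 4 alone and a replicate block 3189 (1331 lower). Leaving out 1 of the 5 libraries gave 2210 to 4342 called (1378 to 2247 higher, 832 to 2095 lower): 3162 without progenitor library 2, 3626 without progenitor library 5, 2236 without neuron library 2 and 2210 without neuron library 4. A neuron group of 1 library is assumed to vary like the other groups.

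Whether the numbers pair progenitors with neurons could not be settled. Same-numbered duplication-deletion libraries correlated at 0.11 and -0.02 in their deviations from the group means. With 2 neuron libraries the neuron deviations mirror each other, so these values are not independent. The same correlations were -0.14 to 0.10 in control cells and 0.18 and -0.26 in deletion cells. Between genotypes of 1 stage, same-numbered libraries correlated at -0.03 to 0.43 in progenitors (5 of 7 pairs over 0.1) and at 0.07 to 0.48 in neurons (3 of 4), so most but not all of them deviated together, and the 3 progenitor libraries numbered 5 had 19311982 to 24053970 counts against 48630461 to 78814037 in the others. With a replicate block within each stage, chosen after the data were seen, edgeR called 3 differences from control cells (1 higher, AK017779, and 2 lower, Gcfc1 and Fop) and 2 from deletion cells (1 higher, AK017779, and 1 lower, Gcfc1); the transition itself cannot be estimated with that block.

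Against control cells DESeq2 called 41 differences (9 higher, 32 lower) and against deletion cells 21 (9 higher, 12 lower), of which 23 and 13 exceeded 10 in size on the log2 scale; the cause was not tested. With entries of the same coordinates summed, 0 were called in either (0 lower). Leaving out 1 library gave 1 to 27 against deletion cells (0 to 24 higher, 1 to 3 lower), with 27 without deletion neuron library 3.

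Of 147 named genes, 139 were called, 0 of these changed sign in any setting, and 95 stayed called in every setting that kept an entry under their own name. Gcfc1 had no such entry once entries were summed, and its sum with C21orf66 was not called (-0.24, adjusted p = 0.491 in edgeR). Signs turned only for genes not called. The gene Maz, at -0.02, was at 0.0761 with RLE scaling, 0.0759 with DESeq2, 0.0531 with the replicate block, 0.0608 without the largest entry, 0.0638 with only the duplication-deletion libraries, 0.027 with libraries 2 and 4, 0.00958 with entries summed, and -0.206 to 0.281 with 1 library left out. Leaving out 1 library moved the gene Taok2 between -0.00494 and 0.237 and the gene Tubb3 between -0.633 and 0.0999. Depth limits low genes most in progenitor library 5, with 19311982 counts.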

Other observations

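Genes of the imprinted Snrpn domain were low in duplication-deletion cells at both stages, a pattern chosen after the values were seen and given as values only. Snurf was at 0.794 to 18.5 CPM in the duplication-deletion progenitors, against 63.7 to 89.6 in control and 75.1 to 109 in deletion progenitors, and at 12.7 to 23.3 CPM in the neurons, against 110 to 291 in control and 121 to 240 in deletion neurons. Ndn was at 0.248 to 11 CPM against 28 to 33.1 in control progenitors, and at 27.1 to 40.6 against 179 to 341 in control neurons. Mkrn3 was at 0.347 to 6.11 CPM against 22.9 to 32.6, and at 2.82 to 6.23 against 22.7 to 31.7, in the same groups. Magel2 was at 0.0992 to 5.01 CPM against 7.36 to 12.8 and at 2.21 to 3.08 against 10.2 to 17.4. For each of these 4 genes the duplication-deletion and control ranges did not overlap at either stage, and progenitor library 5 held the lowest value. Snrpn itself overlapped with control in the progenitors (0.149 to 3.87 against 0.965 to 7.95 CPM) and not in the neurons (2.87 to 3.38 against 27.4 to 53.8).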
